A study of Gallus gallus with 3 samples.

Results

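The probes gga-miR-23b, gga-miR-27b and gga-miR-24 of a chicken miRNA array are described here in the leg muscle of dwarf and normal chickens. They were chosen by name, because the 3 miRNAs belong to 1 conserved cluster and are cut from a common transcript. They make up 3 of the 542 miRNAs on the array, and all 3 were among the 92 that were detected and tested. The array holds no other probe numbered 23, 24 or 27, so no star strand of these miRNAs was measured.

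RNA was taken from the gastrocnemius, a leg muscle, of recessive White Rock chickens at 7 weeks of age. The dwarf chickens carry a deletion in the growth hormone receptor gene (GHR) that reaches into its 3′ untranslated region, and the normal chickens are of the normal type of the same breed. Each strain had 9 chickens, whose RNA was combined into 3 pools of 3 chickens each. Each of the 3 arrays compared 1 dwarf pool (Cy5 on arrays 1 and 3, Cy3 on array 2) with 1 normal pool in the other dye. A pool is an average over its 3 chickens, so the spread between single birds was not measured. The sex of the birds is not given in the sources used here, and the arrays hold no probe for GHR, so the labels could not be checked against the deleted gene.

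A miRNA is loaded into an Argonaute protein and pairs with messenger RNAs mainly through its seed, bases 2 to 8 from the 5′ end, which lowers the output of those messages. The 3 miRNAs of the cluster have different seeds, although they come from 1 transcript. Their targets were not examined here. In mice, miR-27b lowers Pax3 in muscle progenitors as they enter differentiation and restrains fat cell formation through Pparg, and miR-24 favours the differentiation of myoblasts. The miR-23 family lowers mitochondrial glutaminase in human cells, and in mice the cluster is also abundant in the endothelium of vessels. In the RefSeq gene table of assembly bGalGal1.mat.broiler.GRCg7b each of the 3 matched 1 gene, MIR23B, MIR27B and MIR24-2, which follow each other on chromosome Z inside the gene AOPEP. GHR lies on chromosome Z as well.

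The mature sequences are printed as the deposited array tables give them, 5′ to 3′, with the seed in capitals. The fourth is miR-128, shown because it holds the letters of the miR-27b seed at another position.
gga-miR-23b: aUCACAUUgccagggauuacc
gga-miR-27b: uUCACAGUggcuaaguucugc
gga-miR-24: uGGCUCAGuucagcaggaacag
gga-miR-128: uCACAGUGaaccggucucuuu
The seeds of miR-23b and miR-27b both open with UCACA from base 2 and then part. The run UCACAGUG starts at base 2 of miR-27b and at base 1 of miR-128, so the letters of the miR-27b seed are present in miR-128 but moved by 1 base, and the seed of miR-128 itself is CACAGUG. miR-24 shares no more than 4 bases in a row with miR-23b and 5 with miR-27b. The nearest other chicken probe lay 8 base changes from miR-23b (miR-107 and miR-1667), 7 from miR-27b (miR-1451) and 7 from miR-24 (miR-1669). The GC content was 47.6% for miR-23b, 47.6% for miR-27b and 54.5% for miR-24, near the median of 47.8% over the tested miRNAs.

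All 3 miRNAs were detected in leg muscle of both strains, and in none of them did the dwarf pools separate from the normal pools. Signals are in arbitrary units after background subtraction and normalization, and a signal above 32 counted as detected. After normalization all 3 were above 32 in all 6 pools, as were 66 probes in total. Before normalization miR-27b was below 32 in dwarf pool 1, as given below. Fewer cells that make a miRNA and less of it per cell cannot be told apart in whole muscle.

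The signal of miR-23b was 2384, 2704 and 2888 in the dwarf pools of arrays 1, 2 and 3. In the normal pools of the same arrays it was 2885, 3236 and 2043. The lowest and the highest pool were both normal, so the dwarf pools lay inside the normal range. The means were 2658 ± 255 (SD, n = 3) in dwarf and 2721 ± 613 (SD, n = 3) in normal chickens, with p = 0.9 by the exact permutation test of the pools.

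The signal of miR-27b was 92.2, 119.9 and 168 in the dwarf pools and 89.2, 86.3 and 105 in the normal pools. The dwarf pool was the brighter one on each of the 3 arrays, but dwarf pool 1 fell below normal pool 3. The means were 127 ± 38.2 (SD, n = 3) and 93.3 ± 9.80 (SD, n = 3), with p = 0.2 by the exact permutation test. This was the member nearest to the limit of detection of 32. The noise of Cy3, as the median absolute deviation of the subtracted miRNA spots, came to 35.9, 12.8 and 30.9 for arrays 1 to 3. That of Cy5 came to 3.25, 2.71 and 4.31. These are values before normalization, on another scale than the signals above. On that scale the 6 spots of miR-27b in dwarf pool 1 (Cy5) ran from 17.8 to 31.8, with a mean of 22.5. The brightest empty spot of that array and dye was at 44.9. The signal of 92.2 was thus above 32 only after normalization.

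The signal of miR-24 was 884, 798 and 629 in the dwarf pools and 853, 716 and 813 in the normal pools. The highest and the lowest pool were both dwarf. The means were 770.4 ± 130.0 (SD, n = 3) and 794 ± 70.3 (SD, n = 3), with p = 0.8 by the exact permutation test. That two-sided test of 3 pools against 3 cannot go below 0.1, and it does not use the pairing of the pools by array. Among the 92 tested miRNAs the dwarf and normal pools did not overlap in 9 (9.78%), and none of these was a member of the cluster.

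**Figure D1:**
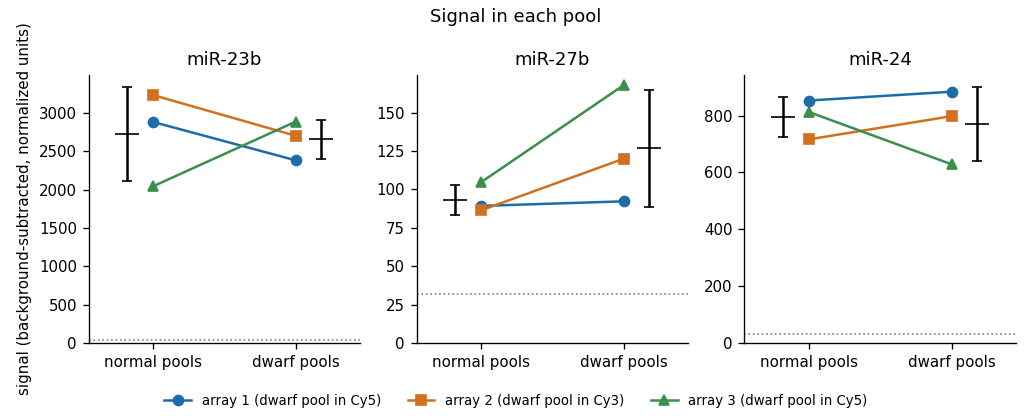
Signal of miR-23b, miR-27b and miR-24 (background-subtracted, normalized units, linear axes from 0) in the normal and dwarf pools. Lines join the pools of 1 array, crossbars give the mean ± SD of 3 pools, and the dotted line marks the detection limit of 32. The lines of miR-23b and miR-24 cross, while the 3 lines of miR-27b all run upward, from 89.2, 86.3 and 105 to 92.2, 119.9 and 168.

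The second measure was the log2 ratio of dwarf over normal within each array, averaged over the 6 spots of a miRNA. For miR-23b it was −0.30, −0.27 and 0.45 on arrays 1, 2 and 3. The mean was −0.042 ± 0.21 (SE of the limma fit, n = 3), and that fit over the 92 tested miRNAs gave an adjusted p of 0.967. The fold was 0.971, with a 95% interval from 0.687 to 1.37. The sign was negative on arrays 1 and 2 and positive on array 3. Leaving out array 3 gave a mean of −0.29, and leaving out array 1 or array 2 turned it to 0.088 or 0.072. The SE and the 95% interval of each member are those of limma, which draws on the variance of all tested miRNAs. From the 3 arrays alone the SE was 0.24 for miR-23b, 0.15 for miR-27b and 0.19 for miR-24.

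For miR-27b the log2 ratio was 0.034, 0.46 and 0.52. It was above 0 on all 3 arrays, but on array 1 it was close to 0, and it turned to −0.15 there with median centring and to −0.11 with plain background subtraction. The mean was 0.34 ± 0.18 (SE, n = 3) by limma, with an adjusted p of 0.802 and an unadjusted p of 0.103. The fold was 1.27, with a 95% interval from 0.939 to 1.71. Leaving out 1 array gave means of 0.25 to 0.49.

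For miR-24 the log2 ratio was −0.039, 0.42 and −0.21. Array 2, on which the dyes were swapped, was the one above 0. The mean was 0.058 ± 0.19 (SE, n = 3), with an adjusted p of 0.967 by limma. The fold was 1.04, with a 95% interval from 0.760 to 1.43. On the scale of the signals, where the background is treated otherwise, array 1 was slightly above 0 as well, at 0.052 against 0.16 and −0.37 on the other arrays. Leaving out array 2 turned the mean log2 ratio to −0.12, and leaving out array 1 or array 3 gave 0.11 or 0.19. With the dwarf pool in Cy5 on arrays 1 and 3, a dye difference of a probe does not cancel in the mean. With a dye term in the fit the mean was 0.15 for miR-24, −0.099 for miR-23b and 0.37 for miR-27b.

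None of the members passed the test between strains. At an adjusted p under 0.05 limma called 0 of the 92 tested miRNAs (0%), with 0.497 as the smallest adjusted p. At an unadjusted p under 0.05 it called 5 (5.43%), and 0 of the 3 members. By the methods' t-test paired by array 5 miRNAs had an unadjusted p under 0.05 and 0 were left after the Benjamini-Hochberg adjustment. A ratio above 0 on all 3 arrays was seen in 20 of 92 (21.7%), of which 1 was a member, miR-27b. The median log2 fold change of the members was 0.058, against 0.063 over all tested miRNAs. All 92 passed detection in dwarf but only 78 in normal pools, so values over the tested miRNAs lean toward those brighter in dwarf. The dwarf pools of arrays 1 and 3 were in Cy5, the dye with the smaller noise before normalization. After normalization, the scale on which detection was set, undetected probes spread further in dwarf pools. The summed signal of 3 undetected nerve markers was −85.3 to −0.28 in dwarf and −5.05 to 1.33 in normal pools. The part of the dye in this lean was not tested.

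The sign-flip permutation test, which is exact and two-sided, gave p = 1 for miR-23b, 0.25 for miR-27b and 1 for miR-24, and 0.25 is the smallest p that 3 arrays allow. Each of the 95% intervals given above holds both falls and rises.

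The spots of an array lay closer together than the arrays did. For miR-23b the 6 spot ratios ran from −0.41 to −0.12 on array 1, from −0.37 to −0.13 on array 2 and from 0.36 to 0.62 on array 3. The spots of array 3 did not overlap those of the other arrays. For miR-27b they ran from −0.11 to 0.12, from 0.29 to 0.56 and from 0.35 to 0.66. For miR-24 they ran from −0.16 to 0.069, from 0.22 to 0.63 and from −0.42 to −0.066. The SD of the spots within an array was 0.081 to 0.16 over the members, while the SD between the 3 arrays was 0.42 for miR-23b, 0.27 for miR-27b and 0.33 for miR-24. The median SD between arrays over the tested miRNAs was 0.27. Spots of 1 array measure the same 2 pools, so they show the precision of an array and not that of the strain difference.

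**Figure D2:**
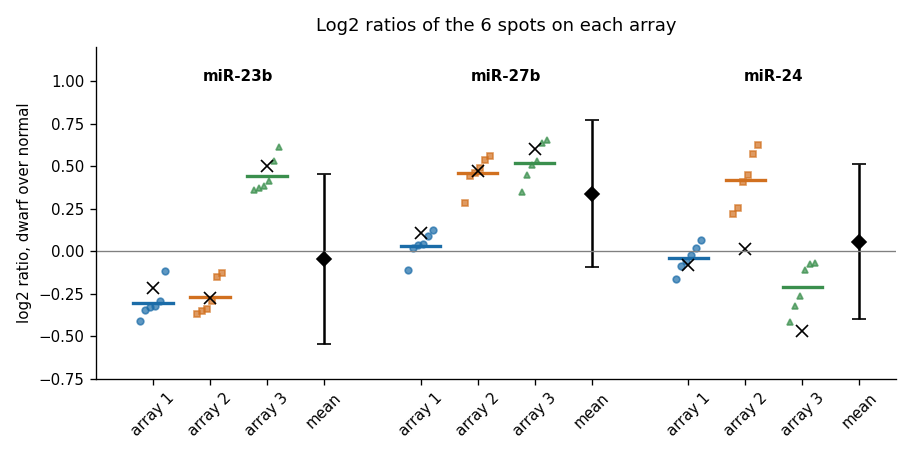
Log2 ratio of dwarf over normal for each of the 6 spots on arrays 1, 2 and 3 (points, with a line at their mean) for miR-23b, miR-27b and miR-24. Crosses are the ratios the authors deposited, and diamonds with bars give the limma mean with its 95% interval. The spots of miR-23b on array 3 (0.36 to 0.62) lie apart from those on arrays 1 and 2, and all 3 intervals include 0: −0.54 to 0.46, −0.091 to 0.77 and −0.40 to 0.51.

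Much of the raw difference between the dyes was removed by normalization within the arrays. After background correction and before this step, the log2 ratio of dwarf over normal was −2.14, 1.01 and 0.12 for miR-23b, −2.30, 1.90 and −0.65 for miR-27b, and −2.10, 1.81 and −0.88 for miR-24. These values had the sign of the dye, with the dwarf pool dimmer in Cy5 and brighter in Cy3, except for miR-23b on array 3. The loess curve took out −1.83, 1.28 and −0.33 for miR-23b, −2.34, 1.44 and −1.17 for miR-27b, and −2.06, 1.39 and −0.67 for miR-24. What was removed was larger in size than the ratio that was left on every array for each member, except for miR-23b on array 3 (0.45 left). With no such step the mean log2 ratio of miR-27b was −0.35, when the median over all tested miRNAs was −0.56. Relative to that median all 3 members were above 0, by 0.23 for miR-23b, 0.21 for miR-27b and 0.17 for miR-24.

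Since the 3 miRNAs come from 1 transcript, their ratios were compared with each other on the same array. The log2 ratio of miR-23b minus that of miR-27b was −0.34, −0.73 and −0.076, with a mean of −0.38 ± 0.33 (SD, n = 3). After the loess step miR-27b thus stood higher than miR-23b in dwarf over normal on all 3 arrays. The exact sign-flip permutation test gave p = 0.25, its smallest value. miR-27b minus miR-24 was 0.073, 0.042 and 0.73, with a mean of 0.28 ± 0.39 (SD, n = 3) and the same exact p of 0.25. miR-23b minus miR-24 was −0.26, −0.69 and 0.65, with a mean of −0.10 ± 0.69 (SD, n = 3) and an exact permutation p of 0.75. These are all 3 pairs of members. None could pass 0.05 with 3 arrays, adjusted or not. When arrays were only centred on the median, the first difference became 0.016 and that of miR-27b and miR-24 became 0.038, and the latter was 0.057 without array 3. With that centring miR-23b was above miR-27b on array 1 (0.012 against −0.15) and array 3 (1.03 against 0.26). On array 2 it was below (−0.34 against 0.55). miR-27b was then below miR-24 on array 1 (−0.15 against 0.053). The order of the members on single arrays thus depended on the loess step.

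The differences between members varied between arrays about as much as those between any 2 tested miRNAs. The SD over the arrays had a median of 0.39 over the 3 pairs of members, against 0.44 over all 4186 pairs of tested miRNAs, with an upper quartile of 0.68. miR-221 and miR-222, another pair made from 1 transcript, differed by 0.14, 0.34 and 0.18, with an SD of 0.11. In the miR-17-92 cluster, of which 4 of 6 members were tested, the SD of the 6 pairs ran from 0.13 to 0.71 with a median of 0.41. Of these groups miR-221 and miR-222, a single pair, had the smallest spread, and the medians of the miR-23b cluster and of miR-17-92 differed by little. The mean signals in dwarf and normal pools were 106 and 130 for miR-221 and 137 and 198 for miR-222. Those of miR-27b were 127 and 93.3. The offset of 50 draws the ratios of dim miRNAs toward 0, and the part of signal level in these spreads was not tested. No test was made between the groups.

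**Figure D3:**
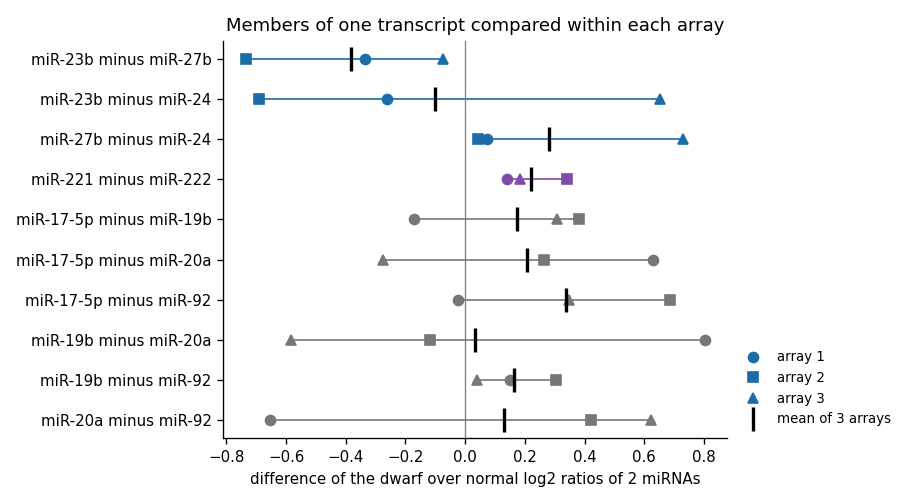
Difference of the dwarf over normal log2 ratios of 2 miRNAs from 1 transcript, for the 3 pairs of the miR-23b cluster (blue), miR-221 and miR-222 (purple) and 6 pairs of miR-17-92 (grey). Markers are arrays 1, 2 and 3 and the black bars their means. The pair miR-221 and miR-222 stays between 0.14 and 0.34, while miR-23b minus miR-24 runs from −0.69 to 0.65.

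Over the 6 pools the members did not rise and fall together. As a description over 6 pools, of which each 2 share an array, the correlation of log2 signals was 0.021 between miR-23b and miR-27b, −0.50 between miR-23b and miR-24 and −0.70 between miR-27b and miR-24. The 3 miRNAs whose pattern was most like that of miR-23b were let-7i (r = 0.88), miR-16 (0.62) and let-7g (0.53). For miR-27b they were miR-30b (0.95), miR-30a-5p (0.93) and miR-146a (0.74). For miR-24 they were the muscle miRNAs miR-133a (0.88) and miR-133b (0.85), followed by miR-103 (0.84). These were the highest among the 65 other miRNAs above 32 in all pools, and the pools of an array share its hybridization. The highest signal of miR-27b and the lowest of miR-24 were both in dwarf pool 3.

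**Figure D4:**
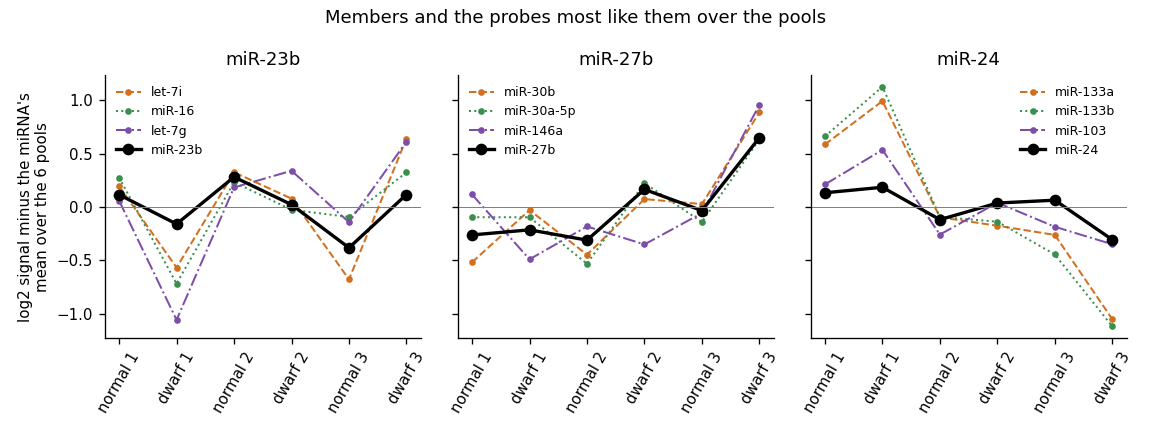
Log2 signal minus the mean of the miRNA over the 6 pools, for each member (black) and the 3 miRNAs with the highest Pearson correlation with it. Pools are in the order of the arrays, normal before dwarf. miR-27b and miR-30b (r = 0.95) are highest in dwarf pool 3, where miR-24 and miR-133a (r = 0.88) are lowest.

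miR-128, which holds the letters of the miR-27b seed moved by 1 base, had signals of 1403, 1055 and 1157 in the dwarf pools and 1664, 1300.0 and 1237 in the normal pools. The dwarf pool was the dimmer one on each array, but the pools overlapped. The log2 ratio was −0.27, −0.081 and −0.0053, with a mean of −0.12 and an adjusted p of 0.951 by limma, so miR-27b and miR-128 were on opposite sides of 0 and neither passed the test. Among the probes with a shorter match of 6 bases, miR-1681 (miR-23b) was not detected. miR-1669 (miR-24) had signals of 206, 10.7 and 57.9 in dwarf and 4.11, 7.03 and 13.7 in normal pools, with a log2 fold change of 0.25 and an adjusted p of 0.849 by limma. Only dwarf pools 1 and 3, both labelled with Cy5, were above 32. It was thus tested only through its dwarf mean, and no direction is read from it.

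The tissue was checked by miRNAs of known cell types. Of 7 muscle probes (miR-1, miR-133, miR-206 and miR-499) 6 were tested and 5 were above 32 in every pool, with a summed signal of 31688 to 72118 in dwarf and 37340.2 to 62284 in normal pools. By limma 0 of them were called at an adjusted p under 0.05, 1 had a ratio mean above 0 (miR-499) and the median log2 fold change was −0.14. miR-499, a miRNA of slow muscle fibres, had signals of 43.5, 425 and 381 in dwarf and 3.51, 72.6 and 28.5 in normal pools. Its log2 fold change was 1.40, with an unadjusted p of 0.0108 and an adjusted p of 0.497 by limma. It passed an adjusted p of 0.05 in 4 of the 20 alternative settings. These were an intensity trend, a mean signal above 100, and the fits without array 1 or without array 3. In all but the first, limma used 1 variance for all miRNAs. The spread of miR-499 itself between arrays (SD 1.12 over the 3 arrays) did not count there. The ratios of miR-499 were 0.11, 2.15 and 1.93. On array 1 both of its signals were below the offset of 50, which draws the ratios of dim miRNAs toward 0. Its signals there were 43.5 in dwarf and 3.51 in normal. The normal pool was in Cy3, with a noise of 35.9 before normalization on that array. After normalization the dwarf pool of array 1 was uncertain too. There miR-9 and miR-142-5p, neither of them tested, were at −67.8 and 57.8, against −2.76 and −4.01 in the normal pool. No size of the difference is therefore read from array 1. The part of fibre types in the ratios of the members was not tested. miR-133a, whose pattern was like that of miR-24, had ratios of 0.36, −0.091 and −0.77. The ratios of miR-24 and of miR-133a were both lowest on array 3, but on array 2 they lay on opposite sides of 0.

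miR-126, the one endothelial marker, had signals of 2411, 2897 and 5582 in dwarf and 3995, 2436 and 2293 in normal pools. Its log2 ratios of −0.73, 0.26 and 1.15 were lowest on array 1 and highest on array 3, as were those of miR-23b and miR-27b, and its mean was 0.23 with an adjusted p of 0.951 by limma. Those of miR-24 were highest on array 2 and lowest on array 3. The order of miR-126 was not particular to it, since let-7g and miR-16 among others had the same one. The part of vessel cells in the miR-23b and miR-27b ratios was not tested. The red cell marker miR-451 had a log2 fold change of 0.087, with ratios of 0.20, −0.55 and 0.61, and the other red cell marker, miR-144, was below 0 in every pool after subtraction. Their summed signal was 32.1 to 89.3 in dwarf and 46.1 to 74.1 in normal pools. Of 4 white cell markers 1 was tested (miR-223, log2 fold change 0.013), with a summed signal of 38.6 to 110.2 in dwarf and 49.5 to 86.0 in normal pools. Of 3 nerve markers (miR-124 and miR-9) 0 were detected, with a summed signal of −85.3 to −0.28 in dwarf and −5.05 to 1.33 in normal pools. The liver miRNA miR-122 had ratios of −0.15, −0.043 and −2.06, with a mean of −0.75 and an adjusted p of 0.802 by limma, and its signal in dwarf pool 3 was 0.824, below detection.

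The direction of miR-23b and miR-24 depended on how the scanned values were processed. The mean of miR-27b fell below 0 in 1 setting, that with no normalization, where 5.43% of all tested miRNAs were above 0. Over 20 alternatives the log2 fold change of miR-23b ran from −0.34 to 0.23 and was above 0 in 5. That of miR-27b ran from −0.35 to 0.49 and was above 0 in 19. That of miR-24 ran from −0.39 to 0.19 and was above 0 in 14. Some alternatives change only the test or the set of miRNAs tested. They keep the reported fold change, so their sign was fixed in advance and these counts overstate the stability. For miR-27b, with a ratio above 0 on each array, the fits without 1 array and with a dye term were bound to be above 0 too. In none of the 20 alternatives did a member pass an adjusted p of 0.05. The log2 ratios deposited by the authors were −0.22, −0.27 and 0.50 for miR-23b, 0.11, 0.47 and 0.60 for miR-27b and −0.080, 0.014 and −0.47 for miR-24.

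**Figure D5:**
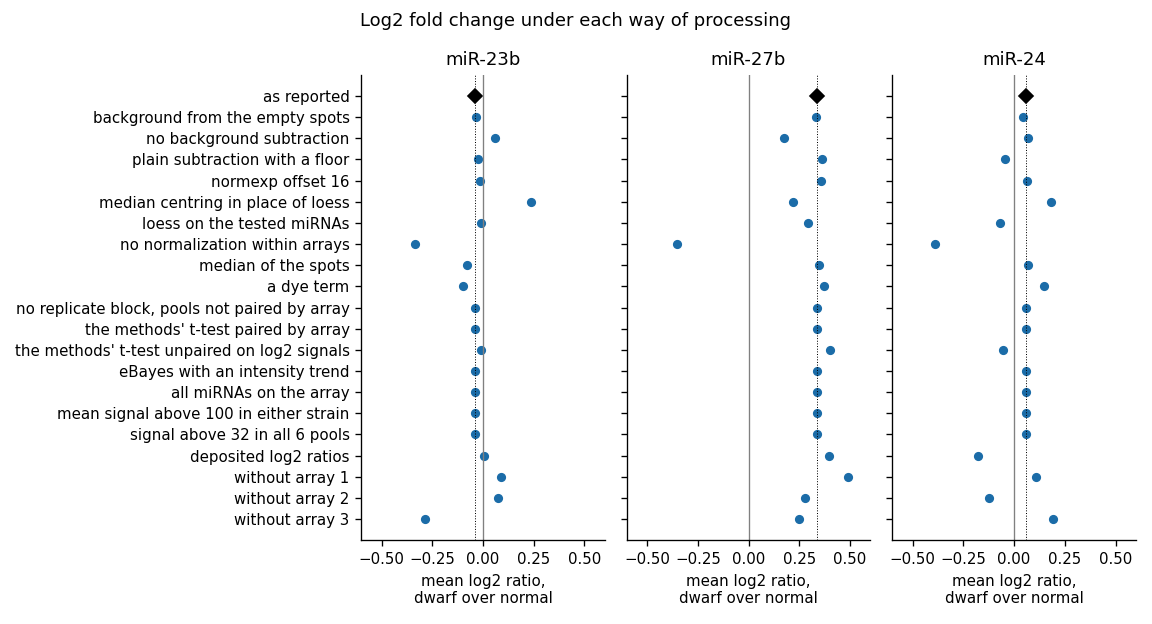
Mean log2 ratio of dwarf over normal for miR-23b, miR-27b and miR-24 as reported (diamond, dotted line) and under each of 20 other ways of processing (points). Values of miR-23b and miR-24 lie on both sides of 0, and those of miR-27b lie above 0 except with no normalization within the arrays (−0.35). Settings that change only the test or the set tested fall on the dotted line by design.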

How the data were processed

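Leg muscle RNA of dwarf and normal chickens was hybridized to 3 two-colour miRNA arrays of 3968 spots (3252 miRNA spots, 6 per miRNA). The deposited array tables hold the mean intensity of each spot and dye as scanned, on a linear scale, without background subtraction. The authors also deposited a table of log2 ratios by miRNA and array, which they obtained by subtracting background and applying LOWESS, and it served only as an alternative. Its direction was found from the scanned intensities (correlations of 0.813, 0.88 and 0.853 over 92 miRNAs), and neither its scale nor its centring was changed. How spots were combined in it is not given in the sources used here.

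R 4.3.3 and limma 3.58.1 were used. The background was a robust loess surface (span 0.3, degree 1) through the miRNA spots of each array and dye. For ratios, normexp (offset 50) on all spots was followed by loess within arrays (span 0.3, 4 iterations) on miRNA spots, the 6 spots were averaged on the log2 scale, and array 2 was turned. The offset draws dim miRNAs toward 0. Signals were the scanned values minus background, freed of the loess curve between the dyes and scaled to 1 median per array. Where the mean signal of a strain was over 32 (92 miRNAs in dwarf, 78 in normal), the miRNA was tested against 0 by limma (lmFit, eBayes) with the Benjamini-Hochberg adjustment at 0.05. Since miRNAs that passed 32 in only 1 strain passed it in dwarf, the tested set leans toward miRNAs brighter in dwarf. The dyes are not balanced between the strains, since the dwarf pools of arrays 1 and 3 were in Cy5. Shares and medians over the tested miRNAs carry this lean. The precision is set by the number of arrays. Signals of different probes were not ranked against each other, since probes bind differently.

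The steps were tested on simulated data with added differences larger than those found for the members. That test therefore does not show whether differences as small as theirs would be recovered. The members, comparison lists and tests were chosen with earlier results of these data known. The miRNAs named are the members, up to 3 of each list (other clusters, seed matches, cell type markers) and the 3 most alike by Pearson correlation. Any miRNA outside this rule is said to be so. Gene names and neighbours came from RefSeq, and no coordinates are given because the array tables name no genome build, and the RefSeq assembly may differ from the one behind the array design.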

Additional observations from a re-analysis of the deposited data

How the results depend on the processing

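The count of miRNAs at an adjusted p under 0.05 was 0, and it was 1 with an intensity trend in eBayes, 1 with a mean signal above 100 required (miR-499 both times), and 0 to 2 when 1 array was left out. No member was among them. The mean log2 ratio of miR-23b turned to 0.058 without background subtraction, 0.23 with median centring, 0.0039 in the deposited ratios and −0.29 to 0.088 with 1 array left out. That of miR-27b turned to −0.35 with no normalization within arrays, and it was 0.25 to 0.49 with 1 array left out. That of miR-24 turned to −0.045 with plain subtraction, −0.067 with loess on the tested miRNAs, −0.39 with no normalization, −0.054 from unpaired log2 signals, −0.18 in the deposited ratios and −0.12 to 0.19 with 1 array left out. The difference of miR-23b and miR-27b turned to 0.016 with median centring and 0.016 with no normalization. That of miR-27b and miR-24 kept its sign but was 0.038 with median centring, 0.57 in the deposited ratios and 0.057 to 0.40 with 1 array left out. That of miR-23b and miR-24 turned to 0.019 with plain subtraction, 0.054 with median centring, 0.057 with loess on the tested miRNAs, 0.054 with no normalization, 0.18 in the deposited ratios and −0.48 to 0.20 with 1 array left out. The cause was not tested. The mean signal of miR-23b moved to 2951 in dwarf and 3009 in normal pools without scaling between arrays. With no normalization it was 3309 in normal pools. That of miR-27b moved to 155 in dwarf and 120.1 in normal pools with the background of the empty spots. With no normalization it was 130.5 in normal pools. That of miR-24 moved to 1055 in normal pools with no normalization. Without the pairing by array (no replicate block) the means stayed −0.042, 0.34 and 0.058, with an adjusted p of 0.985 for each by limma. Of all tested miRNAs 66.3% were above 0 as reported, 50% with median centring and 5.43% with no normalization. The adjusted p over the alternatives ran from 0.822 to 0.999 for miR-23b, 0.609 to 0.985 for miR-27b and 0.824 to 0.997 for miR-24, by limma or the methods' t-test. The number of arrays limits the precision.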

Other observations

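The 3 members lie on chromosome Z, and the other tested miRNAs were set beside them by chromosome, a grouping made after the values were seen. Of 87 tested miRNAs matched to a gene of the RefSeq table, 8 had every matched gene on Z. Their median log2 fold change was −0.0072, with 4 of 8 above 0, against 0.068 with 54 of 79 above 0 for those elsewhere. Without the members, 2 of 5 were above 0 and the median was −0.031. Of the tested miRNAs, 92 passed detection in dwarf but only 78 in normal pools. Those that passed only in dwarf were picked by a high dwarf signal, so the shares above 0 carry that choice. How it falls on Z and elsewhere was not examined, and no difference between the groups is read from these values. No test was made on these counts.

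miR-2954, a Z-linked miRNA known to be more abundant in male than in female birds, was named after its values were seen. Its signal was 1471, 868 and 668 in the dwarf pools and 1853, 959.7 and 999 in the normal pools. The dwarf pool was the dimmer one on each array, but the pools overlapped. The log2 ratios were −0.35, 0.11 and −0.40, with a mean of −0.21 and an adjusted p of 0.951 by limma. The signal and the ratio thus differ in sign on array 2. The part of the sexes in the pools was not tested.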
